A study of Homo sapiens with 12 samples.

Results

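The genes described here are 46 ribosome biogenesis and nucleolar factors, taken by symbol from the 59276 gene symbols of an RNA sequencing table of JJN3 cells. They were chosen by name, and all 46 symbols were found once and passed the filter on low values in every comparison. JJN3 cells come from a human multiple myeloma, a tumour of plasma cells, and grow as an established line. It was asked what type I arginine methyltransferase inhibition and loss of PRMT1, the main enzyme of that class, do to the transcriptome. There were 4 groups of 3 samples. DMSO cells received the vehicle and MS023 cells 10 µM MS023, a small-molecule inhibitor of type I PRMTs, and both were collected after 3 days. The isgCtrl and PRMT1-KO cells were JJN3 cells that carried a lentiviral Cas9 and a lentiviral, doxycycline-inducible guide with puromycin resistance, and both received doxycycline for 3 days. The isgCtrl guide was the control and the PRMT1-KO guide was directed at PRMT1. PRMT1-KO rests on a single guide in a pool of cells and on 1 cell line, so unedited cells can remain in it.

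Ribosome biogenesis begins in the nucleolus, where RNA polymerase I transcribes the ribosomal DNA repeats into a long precursor RNA. The factors UBTF, RRN3 and the SL1 complex recruit the polymerase. Box C/D and box H/ACA small nucleolar ribonucleoproteins (snoRNPs) then methylate and pseudouridylate the precursor at sites chosen by their snoRNA, and assembly factors fold, cleave and package it into small and large subunits. Plasma cells make large amounts of secreted protein and depend on this pathway, and MYC is a known activator of many of its genes. Several nucleolar proteins, among them FBL, NCL and GAR1, carry glycine-arginine-rich stretches that are known substrates of PRMT1.

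The sequences just upstream of 4 of these genes are shown because their mRNAs moved in opposite directions under MS023, with WDR3 and NOP56 lower and NHP2 and NOP10 higher, the latter pair short of the fold threshold used below. Each is the RefSeq promoter of build GRCh38.p14 from 180 bases before the start up to the first annotated transcript of the gene, written 5′ to 3′ along the gene. Capitals mark CCGGAAG, the core bound by ETS factors, CCAAT, the NF-Y box, and CACGTG, the E-box bound by MYC, on either strand.
WDR3 (chr1:117929559-117929719, + strand): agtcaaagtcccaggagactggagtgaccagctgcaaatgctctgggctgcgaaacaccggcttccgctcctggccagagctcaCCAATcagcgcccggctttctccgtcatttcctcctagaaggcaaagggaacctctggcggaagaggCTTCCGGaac
NOP56 (chr20:2652452-2652592, + strand): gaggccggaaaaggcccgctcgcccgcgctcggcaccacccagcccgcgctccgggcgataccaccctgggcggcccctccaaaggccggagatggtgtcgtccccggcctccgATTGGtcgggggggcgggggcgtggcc
NHP2 (chr5:178153895-178154065, - strand): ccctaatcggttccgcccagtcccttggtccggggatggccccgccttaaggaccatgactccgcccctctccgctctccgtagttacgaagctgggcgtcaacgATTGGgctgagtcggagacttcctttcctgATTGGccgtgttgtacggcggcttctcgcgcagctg
NOP10 (chr15:34343181-34343316, - strand): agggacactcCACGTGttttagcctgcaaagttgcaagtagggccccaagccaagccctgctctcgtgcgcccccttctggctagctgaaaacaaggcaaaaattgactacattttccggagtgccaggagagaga
WDR3 held an ETS core 29 bases and a CCAAT box 96 bases before its start. NOP56 held a CCAAT box at 66 bases, NHP2 held CCAAT boxes at 75 and 45 bases, and NOP10 held an E-box at 170 bases. The printed stretches end 20 bases before the start for WDR3, 40 for NOP56, 10 for NHP2 and 45 for NOP10, and the full 250 bases before the start, of which these are a part, held 1 more ETS core for WDR3 and 1 more E-box (11 bases before the start) and 1 ETS core for NOP10. CCAAT was thus found upstream of WDR3 and NOP56, which were lower, and of NHP2, which was higher.

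Promoters were matched for 40 of the 46 members, in 49 windows of 250 bases before the start, and were not found for NOP58, NOLC1, RRP12, BOP1, RRS1 and DDX18. The ETS core CCGGAAG was present in 16 of these 40 members (40.0%), against 14.2% of 15343 protein-coding genes and 20.4% of the 9074 that were tested. The E-box CACGTG was present in 6 members (15.0%), against 9.78% and 11.6%. CCAAT was present in 18 (45%), against 40.7% and 42.5%, and the GC box GGGCGG in 25 (62.5%), against 62.9% and 75.5%. The palindromic NRF1 motif was present in 3 (7.5%), against 1.71% and 2.49%, the CTCGCGAGA motif in 2 (5.0%), against 1.09% and 1.69%, and the TATA box TATAAA in 1 (2.5%), against 11.9% and 7.98%. Both strands were searched and none of these letter strings contains another. The 16 members with the ETS core had a median log2 fold change of -0.14 with MS023 and the 24 without it -0.11, and the 6 with an E-box had -0.13 against -0.13 in the 34 without it. A match here is a description of letters and not a binding site.

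The deposited values are log2(TPM+1), where TPM is a transcript abundance per transcript length, relative to all RNA of the sample. Total RNA per cell is therefore not measured, and in bulk samples fewer cells of a kind and less RNA per cell cannot be told apart. The labels give over 60000000 read pairs per sample, the table keeps no counts, and 20988 to 22241 symbols were above 0. PRMT1 itself was at 9.76, 9.76 and 9.73 in isgCtrl and at 8.24, 8.28 and 8.24 in PRMT1-KO. Its log2 fold change was -1.50 (limma, Benjamini-Hochberg adjusted p = 0.00072), so the isgCtrl and PRMT1-KO labels hold. With MS023 the PRMT1 mRNA had a log2 fold change of 0.04 (adjusted p = 0.597, limma), so this mRNA gives no check of the DMSO and MS023 labels. Of 9 plasma cell genes, SDC1, TNFRSF17, IRF4, PRDM1, XBP1 and JCHAIN averaged 23.2 TPM or more in every group. CD38 was low, at 0.891 to 4.96 TPM, and MZB1 and SLAMF7 averaged 105 and 9.32 TPM in DMSO but 2.01 and 0.369 TPM in isgCtrl. The T cell genes CD3D, CD3E, CD3G, CD2 and TRAC averaged 0.44 TPM or less in every group, while CD247 averaged 50.5 to 63.0 TPM. Summed per sample, 5 myeloid markers reached at most 3.09 TPM and 5 erythroid markers 3.80 to 19.4 TPM. For 6 stromal and epithelial markers the sum was 94.5 to 118.7 TPM, with EPCAM at 6.50, 6.53 and 6.55 in DMSO. With MS023, 3 of the 5 tested from that last panel were higher DEGs (60%, against 11.6% of all genes) and 1 was lower (20%, against 19.3%). The summed TPM of 9 plasma cell markers was 5423 to 5667 in DMSO, 11543 to 11913 in MS023, 2600.0 to 2664 in isgCtrl and 2806 to 2989 in the PRMT1-KO samples, and most of it was JCHAIN, with means of 4836 TPM in DMSO and 10537 TPM in MS023. With MS023, 5 of the 9 were higher DEGs, CD38 was a lower DEG (-0.88) and TNFRSF17 had -0.04. This shift moved with MS023 and its part in the results below was not tested.

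The first comparison asked how MS023 changed these factors. MS023 lowered 8 of the 46 mRNAs and raised 1. The 8 were TAF1B, TAF1A and POLR1B of the RNA polymerase I machinery, NOP56 of the box C/D snoRNP, UTP15, WDR3 and WDR43 of the small subunit processome and WDR12 of the large subunit pathway, and the 1 that rose was RRP12, a small subunit export and maturation factor. A differentially expressed gene (DEG) had a Benjamini-Hochberg adjusted p under 0.05 in limma and a log2 fold change beyond 0.48 in either direction. Of the 12903 genes tested, 19.3% were DEGs with lower and 11.6% with higher expression, so the members' shares of 17.4% and 2.17% were not above the background. At an unadjusted p under 0.05, 27 members (58.7%) passed, against 56.5% of genes. By adjusted p alone, 19 members (41.3%) were lower and 3 (6.52%) were higher, against 30.4% and 18.4% of all genes. The groups did not overlap in 26 lower and 5 higher members, against 36.3% and 23.2%. The log2 fold change was below 0 in 34 members (73.9%), against 59.1%. Its median was -0.14 and its range -1.02 to 0.68, while the median of all genes was -0.11. Scaling each sample by median ratios moved the median of all genes to -0.02, with 1906 DEGs higher and 1959 lower in place of 1500 and 2486, and left 5 members lower, 1 higher and 28 below 0.

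**Figure D1:**
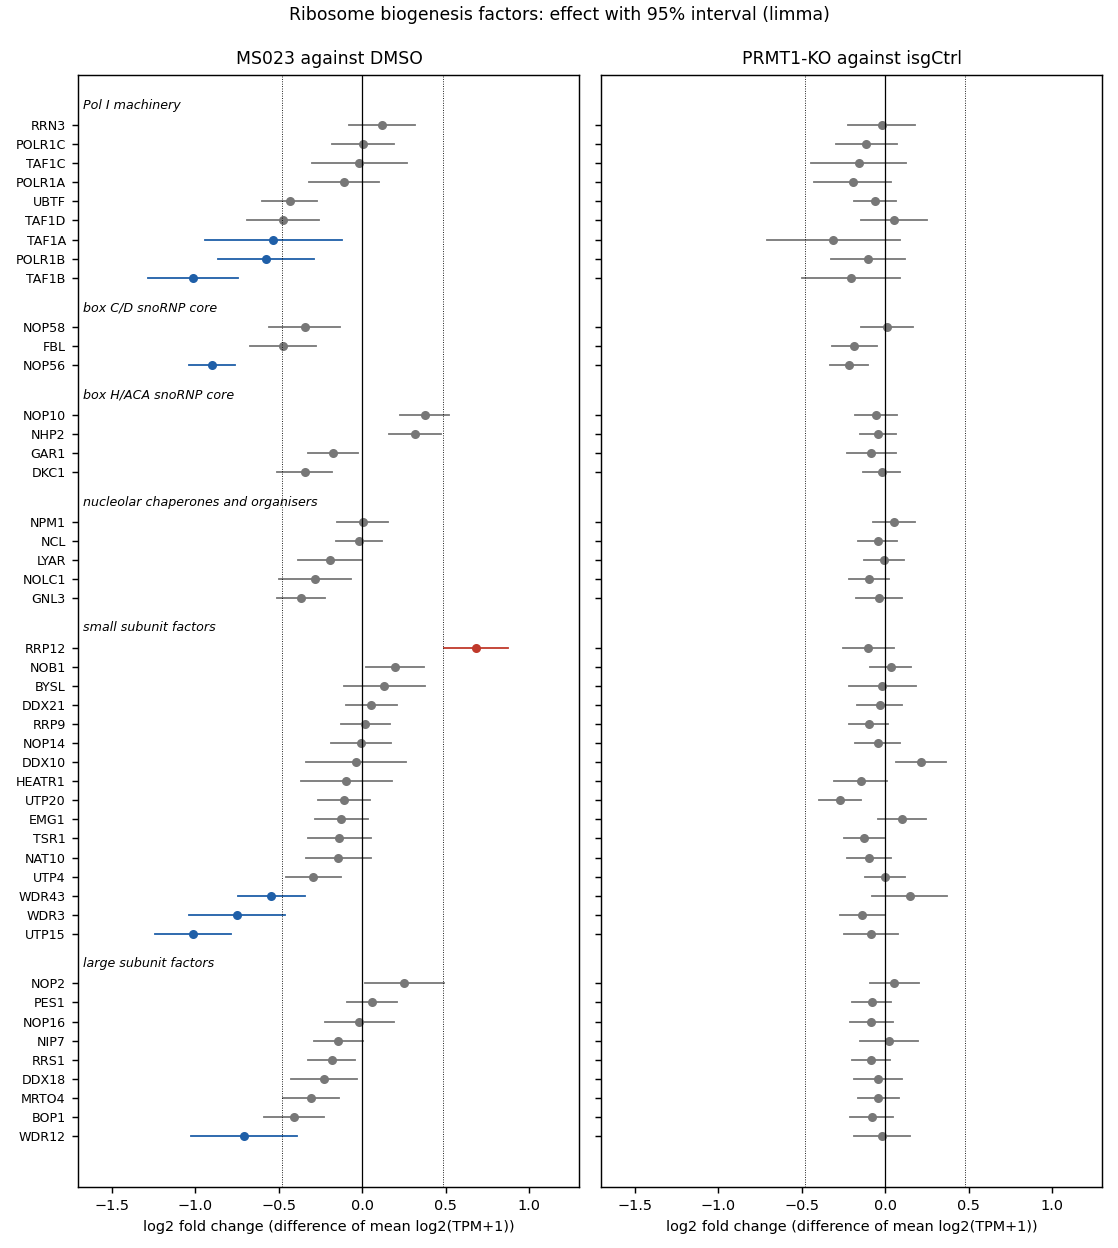
Log2 fold change (x axis, difference of mean log2(TPM+1)) of each of the 46 members, ordered by role, for MS023 against DMSO (left) and PRMT1-KO against isgCtrl (right). Points are limma estimates from 3 against 3 samples, bars are 95% intervals, dotted lines stand at -0.48 and 0.48, and DEGs are blue where lower (8) and red where higher (1). With MS023 the values run from -1.02 to 0.68 and with PRMT1-KO from -0.31 to 0.21.

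Among the 9 members of the RNA polymerase I machinery, 3 were lower with MS023, none was higher, and the median was -0.44. The largest fall was in TAF1B (chr2:9843443-9934416), a subunit of SL1, the complex that places RNA polymerase I at the ribosomal promoter. TAF1B stood at 4.70, 4.37 and 4.64 in DMSO and at 3.58, 3.44 and 3.65 in MS023, with no overlap. Its mean fell from 22.9 ± 2.79 to 10.8 ± 0.85 TPM (SD, n = 3), 47.1% of control, and its log2 fold change was -1.02 ± 0.11 (SE, limma adjusted p = 0.00087). POLR1B (chr2:112541915-112579818), the second-largest catalytic subunit, stood at 4.85, 4.91 and 4.83 in DMSO and at 4.29, 4.07 and 4.50 in MS023, so all MS023 samples were lower. Its log2 fold change was -0.58 ± 0.12 (adjusted p = 0.0088, limma) and was inside the threshold without MS023 replicate 2 (-0.466), with median-ratio scaling (-0.476) and with quantile normalization (-0.433). TAF1A (chr1:222557902-222589933), another SL1 subunit, was low throughout, at 2.57, 2.72 and 2.41 in DMSO and 1.75, 2.35 and 2.0 in MS023. Its log2 fold change of -0.53 ± 0.17 (adjusted p = 0.041, limma) was the call lost most often of the 9, in 10 of 16 alternative settings, with adjusted p from 0.014 to 0.112 across the 16. These included each DMSO replicate left out (-0.45 to -0.61) and MS023 replicates 1 and 3 left out (-0.39 and -0.52).

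The rest of the machinery split into members just short of the fold threshold and members near 0. TAF1D, a further SL1 subunit, had -0.473 (adjusted p = 0.0065, limma) and UBTF, the upstream binding factor that keeps the repeats active, had -0.44 (adjusted p = 0.0033, limma). UBTF stood at 6.39, 6.30 and 6.39 in DMSO and at 5.85, 5.96 and 5.97 in MS023. TAF1C, the remaining SL1 subunit among the members, was at -0.02. POLR1A, the largest polymerase subunit, was at -0.11 and POLR1C, shared with RNA polymerase III, at 0.00. RRN3, the initiation factor that couples polymerase and SL1, was at 0.12. TAF1C, POLR1A, POLR1C and RRN3 did not pass the test. Within SL1, the level of TAF1B relative to TAF1C was 0.60, 0.53 and 0.80 log2 units in DMSO and -0.52, -0.38 and -0.17 in MS023. The TAF1B level thus went from above to below that of TAF1C in all 3 treated samples. This pair and the partner pairs below were chosen after values were seen. They are descriptions, because an exact permutation test of 3 against 3 samples cannot go below p = 0.1.

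The mRNAs of all 3 box C/D core proteins among the members were lower with MS023, with a median of -0.48, but only NOP56 was a DEG. SNU13, a further core protein counted in the wider set below, averaged 8.07 in DMSO and 7.84 in MS023. NOP56 (chr20:2652593-2658393), a scaffold of the methylation particle, stood at 8.84, 8.90 and 8.88 in DMSO and at 7.98, 7.98 and 7.96 in MS023. These are the most even replicates among the DEGs, and the mean went from 469 ± 9.08 to 250.5 ± 2.06 TPM (SD, n = 3), a log2 fold change of -0.90 ± 0.06 (limma adjusted p = 0.00015). FBL, fibrillarin, the methyltransferase of the particle, stood at 10.20, 10.33 and 10.27 in DMSO and at 9.87, 9.67 and 9.84 in MS023. The FBL groups did not overlap, and its log2 fold change of -0.476 (interval -0.67 to -0.28, adjusted p = 0.0045, limma) lay just inside the threshold and passed it in 5 of 16 alternatives. NOP58, the other scaffold, had -0.35 (adjusted p = 0.018, limma). Relative to FBL, NOP56 went from -1.36, -1.43 and -1.39 to -1.89, -1.69 and -1.88, a lower NOP56 share in every treated sample, while NOP58 relative to FBL went from -2.50, -2.47 and -2.65 to -2.41, -2.30 and -2.52 and overlapped.

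The 4 box H/ACA core proteins, which form the pseudouridylation particle, did not move together. DKC1, dyskerin, the catalytic subunit, had -0.35 (adjusted p = 0.0074, limma), and its levels were 6.73, 6.64 and 6.68 in DMSO and 6.26, 6.37 and 6.38 in MS023. NHP2 stood at 8.71, 8.70 and 8.75 in DMSO and at 9.07, 9.07 and 8.96 in MS023, with a log2 fold change of 0.31 (adjusted p = 0.0089, limma). NOP10 stood at 7.95, 7.92 and 7.84 in DMSO and at 8.28, 8.27 and 8.28 in MS023, with 0.37 (adjusted p = 0.0038, limma). The small subunits NHP2 and NOP10 were higher and DKC1 lower in every MS023 sample, all short of the fold threshold. GAR1, the fourth protein, stood at 6.44, 6.42 and 6.37 in DMSO and at 6.18, 6.26 and 6.26 in MS023, with -0.17 (adjusted p = 0.057, limma), and its groups did not overlap. The level of NHP2 relative to DKC1 was 1.98, 2.05 and 2.08 in DMSO and 2.81, 2.69 and 2.58 in MS023, and that of NOP10 relative to DKC1 was 1.22, 1.27 and 1.17 against 2.02, 1.89 and 1.90. Neither ratio overlapped between the groups, and the mean shifts were 0.66 and 0.72 log2 units. These genes were paired after their opposite shifts were seen, so the separation restates those shifts. An exact permutation test gave p = 0.1 for each of these ratios, the lowest it can reach, and nothing is read from it.

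**Figure D2:**
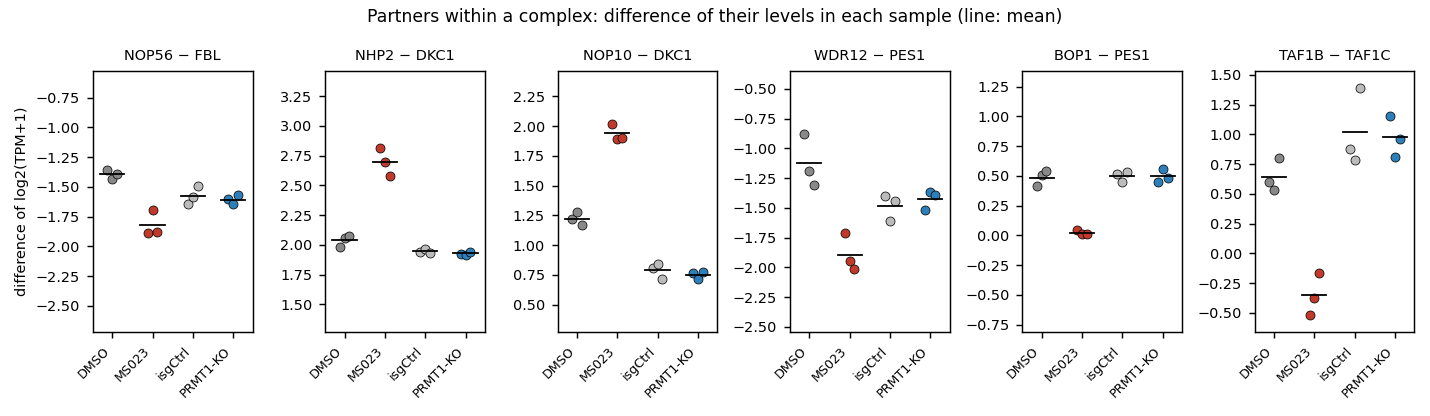
Difference in log2(TPM+1) between pairs of proteins of the same complex (y axis, first gene minus second, panels of equal height but different position) in each sample, with 3 points and a mean line per group. With MS023 the mean moved by -0.43 for NOP56 and FBL, 0.66 for NHP2 and DKC1, 0.72 for NOP10 and DKC1, -0.77 for WDR12 and PES1, -0.47 for BOP1 and PES1 and -0.998 for TAF1B and TAF1C. PRMT1-KO means differ from isgCtrl by -0.04 to 0.06 in these 6 panels, and by -0.15 to 0.20 over all 11 pairs examined. The pairs were chosen after values were seen.

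None of the 5 nucleolar chaperones and organisers was a DEG with MS023, and the 2 most abundant were near 0. NPM1, nucleophosmin, an abundant nucleolar chaperone, stood at 11.80, 11.71 and 11.81 in DMSO and at 11.81, 11.74 and 11.77 in MS023. NCL, nucleolin, stood at 8.99, 8.95 and 8.93 in DMSO and at 8.94, 8.91 and 8.95 in MS023. The groups overlapped for both genes, with log2 fold changes of 0.00 (95% interval -0.15 to 0.15) for NPM1 and -0.02 (-0.16 to 0.12) for NCL, and both signs changed under other scalings. At 3498 ± 127 TPM in DMSO (SD, n = 3), NPM1 was the most abundant member, and its 46 processed-copy rows summed to 4.89 TPM. GNL3, nucleostemin, had -0.37 (adjusted p = 0.0037, limma) and NOLC1, a chaperone of snoRNPs, had -0.28 (adjusted p = 0.039, limma), both short of the threshold. LYAR had -0.19 (adjusted p = 0.087, limma).

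The 16 small subunit factors held 3 lower DEGs and the only member that rose, with a median of -0.10. UTP15 (chr5:73565443-73583380) belongs to the UTP-A module that binds the growing precursor RNA first. UTP15 stood at 4.71, 4.59 and 4.67 in DMSO and at 3.77, 3.68 and 3.48 in MS023, without overlap. Its mean went from 24.2 ± 1.02 to 11.5 ± 1.28 TPM (SD, n = 3), 47.6% of control, with a log2 fold change of -1.01 ± 0.09 (limma adjusted p = 0.0005). WDR43 (chr2:28894667-28948219), of the same module, stood at 5.55, 5.59 and 5.44 in DMSO and at 4.96, 4.89 and 5.10 in MS023. The WDR43 groups did not overlap, and its log2 fold change of -0.55 ± 0.08 (adjusted p = 0.0029, limma) was -0.44 with median-ratio scaling and with quantile normalization, inside the threshold. UTP4, a further member of the module, had -0.29 (adjusted p = 0.015, limma) and HEATR1, a large scaffold of the module, had -0.10 (adjusted p = 0.511, limma). WDR3 (chr1:117929720-117966543), of the UTP-B module, stood at 6.62, 6.49 and 6.70 in DMSO and at 5.94, 5.63 and 5.99 in MS023. All WDR3 values were lower with MS023, and the log2 fold change was -0.75 ± 0.12 (adjusted p = 0.0035, limma).

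RRP12 (chr10:97356358-97426076) went the other way, from 4.48, 4.37 and 4.42 in DMSO to 5.01, 5.08 and 5.22 in MS023. Its lowest MS023 sample was above its highest DMSO sample, the mean went from 20.5 ± 0.86 to 33.5 ± 2.59 TPM (SD, n = 3), 163% of control, and the log2 fold change was 0.68 ± 0.08 (limma adjusted p = 0.0011). The other 12 small subunit factors gave no adjusted p under 0.05 apart from UTP4, and ran from -0.29 to 0.20. They included NAT10, the cytidine acetyltransferase, at -0.14, EMG1, a methyltransferase, at -0.13, DDX21, a helicase, at 0.05, DDX10, another helicase, at -0.04, NOP14 at -0.01 and RRP9, a U3 snoRNP protein, at 0.02. TSR1 was at -0.14, UTP20 at -0.11, BYSL at 0.13 and NOB1, the nuclease that makes the final cut in the small subunit RNA, at 0.20.

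Of the 9 large subunit factors, WDR12 was the DEG with MS023, and the median was -0.18. WDR12 (chr2:202874261-203014798) forms the PeBoW complex with PES1 and BOP1, which is needed to process the large subunit RNA. WDR12 stood at 6.44, 6.09 and 6.08 in DMSO and at 5.65, 5.45 and 5.38 in MS023, with no overlap and a log2 fold change of -0.71 ± 0.13 (adjusted p = 0.0059, limma). BOP1 stood at 7.73, 7.79 and 7.93 in DMSO and at 7.40, 7.41 and 7.40 in MS023, with -0.41 (adjusted p = 0.0056, limma), short of the threshold. PES1 was at 7.32, 7.28 and 7.39 and at 7.36, 7.40 and 7.39, with 0.06 (95% interval -0.09 to 0.21). Relative to PES1, BOP1 went from 0.41, 0.51 and 0.54 to 0.04, 0.01 and 0.01 and WDR12 from -0.88, -1.19 and -1.31 to -1.71, -1.95 and -2.02. Thus the levels of 2 of the 3 PeBoW mRNAs were lower relative to PES1 in every treated sample. MRTO4, which occupies the place of a stalk protein during assembly, had -0.31 (adjusted p = 0.013, limma) and RRS1, which brings the 5S particle, had -0.18 (adjusted p = 0.039, limma). NOP2, a cytosine methyltransferase, was at 0.25, DDX18, a helicase, at -0.23, NIP7 at -0.14 and NOP16 at -0.02, and none of these passed.

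**Figure D3:**
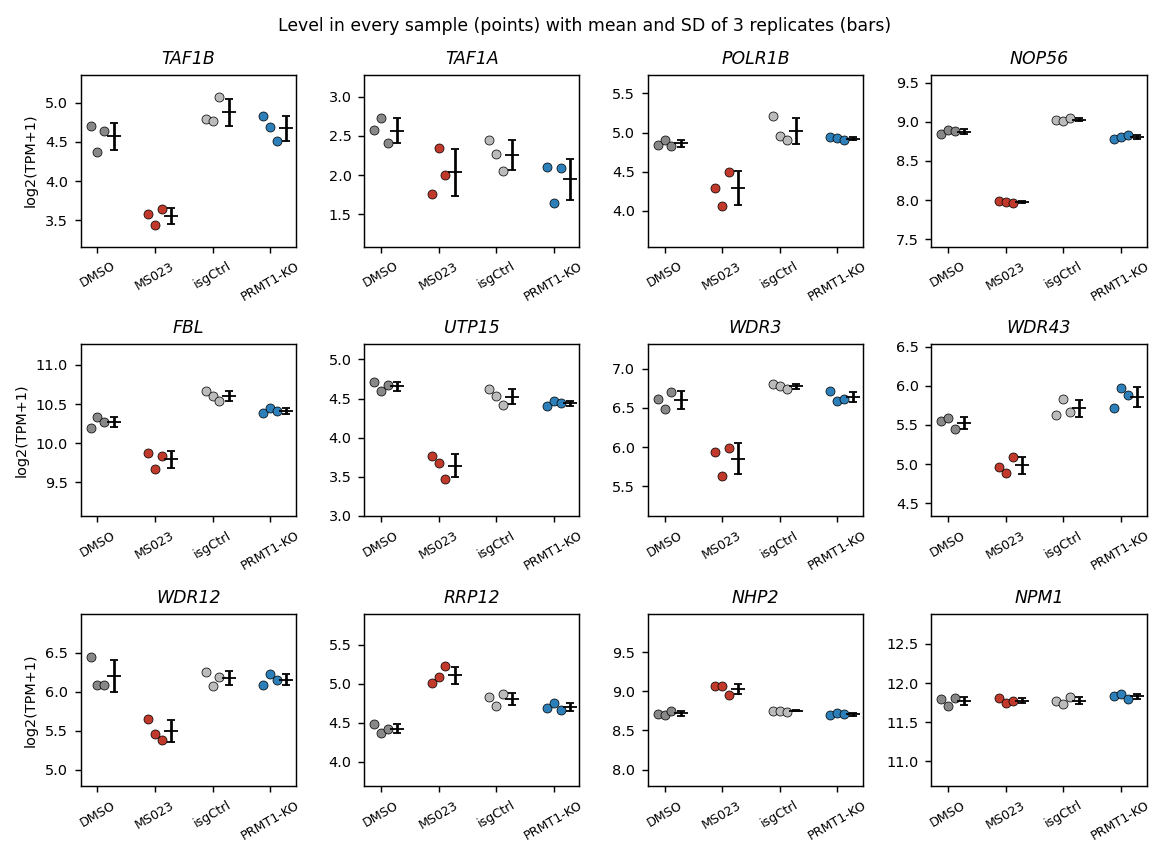
Level in log2(TPM+1) (y axis, each panel spanning 2.2 units) of 12 members in each of the 12 samples, with points for replicates and bars for the mean and SD of 3. TAF1B, TAF1A, POLR1B, NOP56, FBL, UTP15, WDR3, WDR43 and WDR12 are lower in all MS023 samples than in all DMSO samples, RRP12 and NHP2 are higher, and NPM1 overlaps. For PRMT1-KO against isgCtrl, NOP56 is at 8.78 to 8.84 against 9.01 to 9.05.

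The second comparison asked whether loss of PRMT1 changed the same factors. No member was a DEG in PRMT1-KO cells, where 0.781% of 12285 genes were DEGs, and no member had an adjusted p under 0.05 in limma without trend. With trend in limma, NOP56 (adjusted p = 0.006) and FBL (adjusted p = 0.032) did, and in a joint limma fit of all 12 samples NOP56 (adjusted p = 0.024) and UTP20 (adjusted p = 0.023) did, all with log2 fold changes inside the threshold. At an unadjusted p under 0.05, 6 members passed (13.0%), against 18.6% of all genes. The log2 fold changes ran from -0.31 (TAF1A) to 0.21 (DDX10), the median was -0.06 against -0.04 for all genes, and 36 members (78.3%) were below 0, against 60.5%. The groups did not overlap in 11 lower and 2 higher members, against 17.6% and 9.11%. The 95% intervals of all 46 members lay between -0.71 and 0.37, so only TAF1A (-0.71 to 0.09) and TAF1B (-0.50 to 0.09) had intervals that reach a fall past the threshold.

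The members with the smallest unadjusted p in PRMT1-KO were UTP20, NOP56, DDX10 and FBL. UTP20, a very large small subunit scaffold, stood at 2.90, 2.87 and 2.98 in isgCtrl and at 2.65, 2.62 and 2.66 in PRMT1-KO, with -0.27 (adjusted p = 0.084, limma). NOP56 stood at 9.02, 9.01 and 9.05 in isgCtrl and at 8.78, 8.81 and 8.84 in PRMT1-KO, with -0.22 (interval -0.33 to -0.11, adjusted p = 0.099, limma). FBL stood at 10.66, 10.60 and 10.54 in isgCtrl and at 10.39, 10.45 and 10.41 in PRMT1-KO, with -0.19 (adjusted p = 0.174, limma). In these 3 genes all PRMT1-KO samples were below all isgCtrl samples. DDX10 was above, at 5.52, 5.49 and 5.56 against 5.69, 5.69 and 5.83, with 0.21 (adjusted p = 0.16, limma). NCL stood at 9.14, 9.09 and 9.15 in isgCtrl and at 9.06, 9.07 and 9.11 in PRMT1-KO, GAR1 at 6.79, 6.67 and 6.80 against 6.61, 6.68 and 6.71, and NPM1 at 11.78, 11.73 and 11.83 against 11.84, 11.86 and 11.80. The groups of these abundant nucleolar genes overlapped. Of all 11 pairs of complex partners examined, the PRMT1-KO mean differed most for NOP58 relative to FBL, by 0.20 log2 units without overlap (-3.16, -3.25 and -3.07 in isgCtrl and -2.99, -2.95 and -2.95 in PRMT1-KO), and for TAF1A relative to TAF1C, by -0.15.

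**Figure D4:**
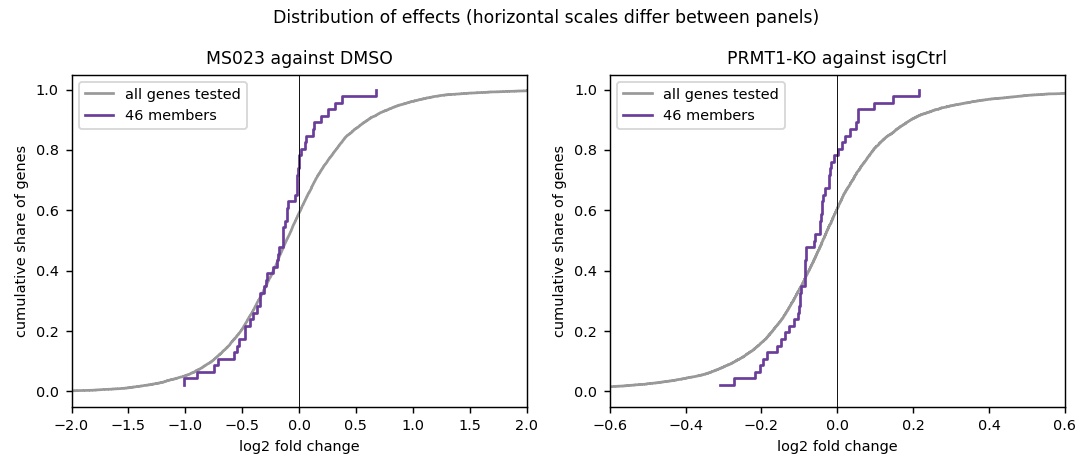
Cumulative share of genes (y axis) by log2 fold change (x axis, difference of mean log2(TPM+1)) for the 46 members and for all genes tested, with MS023 (left, 12903 genes) and PRMT1-KO (right, 12285 genes). The horizontal scales differ. The members' medians of -0.14 and -0.06 lie close to those of all genes, -0.11 and -0.04, and the members' steps are steeper, with a range of -1.02 to 0.68 with MS023 and -0.31 to 0.21 with PRMT1-KO.

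The difference between both effects was tested itself, as the MS023 effect minus the PRMT1-KO effect in all 12 samples. It passed for 8 members, of which 7 were lower and 1 higher (15.2% and 2.17%), against 14.7% and 9.69% of 13256 genes. The 7 were UTP15 at -0.93, TAF1B at -0.81, WDR43 and WDR12 at -0.69, NOP56 at -0.68, WDR3 at -0.61 and TAF1D at -0.52, and RRP12 was at 0.78 (adjusted p from 2.12e-05 for NOP56 to 0.0071 for TAF1D, limma). By adjusted p alone, 16 members were lower (34.8%) and 3 higher (6.52%) in the difference, against 21.2% and 14.4%, and 28 (60.9%) were below 0, against 56.3%. TAF1D was no DEG with MS023 alone, and its difference held a PRMT1-KO value of 0.05. POLR1B at -0.47 (adjusted p = 0.036, limma) and TAF1A at -0.22 (adjusted p = 0.525, limma) were DEGs with MS023, but their difference from PRMT1-KO did not pass. MS023 and PRMT1-KO differ in the agent and in the cells that received it, and these cannot be told apart. Over the 46 members the effects of MS023 and PRMT1-KO had Pearson's r = 0.24 and Spearman's rho = 0.19 across genes, with 27 members below 0 in both, and over 11932 genes tested in both r was 0.23 and rho 0.27. Genes are not independent replicates, and these are descriptions.

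The members already differed between the control groups. The isgCtrl level was above the DMSO level in 36 of 46 members, with a median difference of 0.17 against 0.07 for 12661 genes. In 31 members (67.4%) all isgCtrl samples were above all DMSO samples, against 31.8% of genes, and in 5 members (10.9%) all were below, against 19.9%. BYSL and RRS1 were the most raised, both by 0.52, and NOP10 and TAF1A the most lowered, both at -0.31. The summed level of all members was 9368 to 9567 TPM in DMSO, 8486 to 8806 in MS023, 10110 to 10373 in isgCtrl and 9919 to 10152 in the PRMT1-KO samples. These control groups differ in Cas9, guide, selection, doxycycline and DMSO at once, which cannot be told apart, and no test was made. Each treatment is therefore read only against its own control.

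MYC, the activator named above, stood at 7.81, 7.70 and 7.81 in DMSO and at 7.89, 7.89 and 7.95 in MS023, with 0.14 (adjusted p = 0.126, limma). In isgCtrl it stood at 8.64, 8.69 and 8.57 and in PRMT1-KO at 8.48, 8.53 and 8.46, with -0.14 (adjusted p = 0.254, limma). The MYC groups did not overlap in either comparison, the MS023 samples being above and the PRMT1-KO samples below their controls. Among its 8 partners and antagonists, MXD3, a repressor of the MAX network, fell with MS023 by 0.72 on the log2 scale (adjusted p = 0.0029, limma). MXD4, another such repressor, went the other way without overlap, at 4.12, 4.34 and 4.32 in DMSO and 4.71, 4.68 and 4.73 in MS023, with 0.45 (adjusted p = 0.0056, limma), short of the threshold.

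A wider set of 144 further factors of the pathway included MYC and its partners. With MS023 it gave 23 lower (16.0%) and 3 higher (2.08%) DEGs, against 19.3% and 11.6% of all genes, and a median of -0.20. Without the fold threshold, 78 of the 144 had an adjusted p under 0.05 (limma) in either direction, against 48.8% of all genes. At an unadjusted p under 0.05, 92 (63.9%) passed, against 56.5%. In the list of other RNA polymerase I subunits and ribosomal DNA factors, all 12 genes were below 0, against 59.1% of all genes, and 5 (41.7%) were lower DEGs, against 19.3%, with a median of -0.47. They were POLR1D at -0.90, TCOF1, treacle, at -0.70, POLR2K at -0.58, POLR1F at -0.52 and POLR1H at -0.50. In this list POLR2E, POLR2F, POLR2H, POLR2K and POLR2L are shared with RNA polymerase II, and POLR1D, like POLR1C, with RNA polymerase III. Among 10 other snoRNP assembly factors all were below 0, and 2 (20%, close to the 19.3% of all genes) were lower DEGs, NOPCHAP1 (-0.95) and NAF1 (-0.55). Of 15 pre-rRNA exonucleases, exosome subunits and cofactors, 5 (33.3%) were lower, led by the exosome core proteins EXOSC8 (-1.12) and EXOSC9 (-1.06). Of 46 other small subunit factors, 6 (13.0%) were lower, led by TBL3 (-1.08), and 2 were higher, RCL1 (0.66) and NOL6 (0.63). Of 52 other large subunit factors, 4 (7.69%) were lower and GRWD1 (0.58) was higher. EXOSC8 went from 6.81, 6.82 and 6.78 in DMSO to 5.68, 5.80 and 5.58 in MS023, the largest fall of the 144. In PRMT1-KO cells none of the 143 tested was a DEG in limma, 26 (18.2%) had an unadjusted p under 0.05, against 18.6% of all genes, and MNT, a MAX partner, had an adjusted p of 0.046 (limma) at -0.37.

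Of 28 ribosomal DNA rows looked for, 3 were found. RNA5-8SN2 was listed at 0, 5.25 and 0 in DMSO and at 5.60, 7.78 and 7.22 in MS023, and at 0, 3.96 and 5.90 in isgCtrl against 5.40, 3.86 and 0 in PRMT1-KO. MIR3648-1, a hairpin inside the transcribed spacer of the ribosomal repeat, was listed at 0 in every DMSO sample and at 3.50, 3.77 and 4.39 in MS023. In isgCtrl it was at 2.56, 0 and 0 and in PRMT1-KO at 0, 1.31 and 0, and MIR6724-1 was at 0 throughout. The 2 rows tested with MS023 were higher DEGs, and 1 of these 2 was also higher in the difference of effects. In PRMT1-KO the 1 row tested was no DEG. These rows come from repeated sequence, and most or all DMSO values were 0, so no fold is given.

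What the members shared beyond their selection was examined in the GENCODE annotation of GRCh38. A snoRNA lay inside an intron of 9 of the 46 genes (19.6%), against 1.94% of 11006 protein-coding genes tested, with 34 snoRNAs in all. TAF1D held 8, among them SNORD5 and SNORD6, NOP56 held 5, among them SNORD56 and SNORD57, and WDR43 held 3. The 9 hosts had a median log2 fold change of -0.35 with MS023 and 8 of them were below 0, while the other members had -0.13. Over all genes, the 213 hosts had -0.20 and the others -0.11. The GC content of the canonical mRNA was related to the effect of MS023 across the members, with Spearman's rho = 0.47 and Pearson's r = 0.46 (n = 46 genes of the same samples), and over the 11006 genes rho was 0.26. TAF1B, UTP15, WDR3 and WDR12 had GC contents of 38.1%, 38.6%, 39.6% and 39.6%, against 58.5% for RRP12 and 51.7% for NOP56. For mRNA length rho was -0.20 among members and -0.11 among all. GC content moved with the fold change, and its part in the result was not tested. Of the DEGs, TAF1A, WDR3 and RRP12 overlap a gene on the opposite strand (TAF1A-AS1, SPAG17 and ENSG00000231970). So do NHP2 (RMND5B), POLR1C, UBTF, TAF1C, NOP58, GNL3, NOP14, HEATR1, NOB1, TSR1, EMG1 and NOP16. The strand setting of the counting is not given in the sources used here, so reads of such pairs cannot be told apart.

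**Figure D5:**
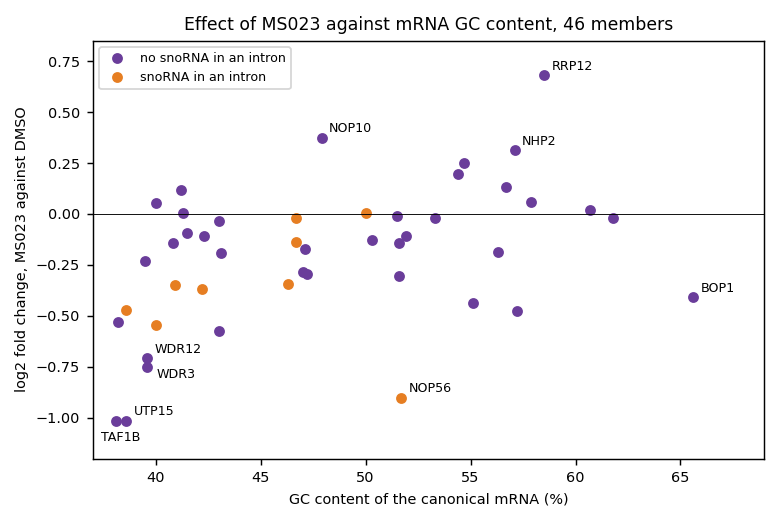
Log2 fold change with MS023 against DMSO (y axis) by GC content of the canonical mRNA (x axis, percent) for the 46 members, with the 9 hosts of intronic snoRNAs in orange and the others in purple. TAF1B and UTP15 lie at 38.1% and 38.6% with -1.02 and -1.01, RRP12 lies at 58.5% with 0.68, and Spearman's rho is 0.47.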

How the data were processed

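RNA of 12 JJN3 samples (3 per group) was sequenced by the submitters, whose processing notes name FastQC, Trimmomatic, STAR, Salmon and build hg38. The authors deposited a single table of log2(TPM+1) per gene symbol, that is TPM, a length-scaled abundance with the same sum in every sample, with a pseudocount of 1 on the log2 scale. It holds no counts, so the depth behind a value is unknown and precision rests on the spread of 3 replicates. The study's methods speak of independent experiments in general, but the labels give these samples only numbers, so p-values measure the spread between these samples, which may be partly technical. TPM is relative, so a strong change in a few abundant genes shifts all others.

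Groups were taken from the sample labels. Genes with a group mean above 1 in either group were fitted with limma 3.58.1 (R 4.3.3, moderated test without trend), and p-values were adjusted by the Benjamini-Hochberg method over all genes tested. A DEG had an adjusted p under 0.05 and a log2 fold change beyond 0.48, the thresholds of the study's methods. With MS023 this gave 3986 DEGs, far more than the paper reports, and with PRMT1-KO 96, close to the paper's count. The reason for the gap with MS023 is not known, and the shares of all genes given here are not the paper's. The difference of effects was a contrast in all 12 samples. A fold change is on the log2(TPM+1) scale and understates changes of low genes. An exact permutation test of 3 against 3 cannot go below p = 0.1 and was therefore not used for single genes. The fits were tested on simulated data.

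The members and lists were chosen with earlier results of these data known. Values in every sample were planned for the called members with the largest rise and fall of each role, for FBL, NCL, GAR1, NPM1, MYC and PRMT1, and those of other members and the complex partners were added after values were seen. Of the 144 wider genes, the 5 largest falls and the 3 rises were planned to be named, and POLR1F, POLR1H, POLR2K, TCOF1, NAF1, MXD3 and MNT were named after their values were seen. Positions, exons and snoRNAs come from GENCODE release 44 and promoters from RefSeq, both on the same assembly as the files. Older symbols in the table (TWISTNB, CD3EAP, ZNRD1 and C12orf45) were matched to POLR1F, POLR1G, POLR1H and NOPCHAP1. Another pseudocount, filters, scalings, limma with trend, a replicate block, a joint fit, other fold thresholds and each replicate left out were tried.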

Additional observations from a re-analysis of the deposited data

Results flagged for a closer look

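For 8 members (17.4%) the MS023 effect differed from the PRMT1-KO effect in a direct test of that difference (limma contrast in all 12 samples, log2 scale). Over all 13256 genes tested the share was 24.4%. By adjusted p alone, 41.3% of members passed against 35.6% of all genes, so the order of the shares depends on the fold threshold. The differences were -0.81 for TAF1B, -0.52 for TAF1D, -0.68 for NOP56, -0.93 for UTP15, -0.69 for WDR43, -0.61 for WDR3, 0.78 for RRP12 and -0.69 for WDR12. The call of TAF1D was lost with median-ratio scaling (-0.44), with quantile normalization (-0.47), without MS023 replicate 1 (-0.45) and without PRMT1-KO replicate 3 (-0.45). The other 7 kept theirs in every alternative except a fold threshold of 1. The effects come from different agents in different cells, with a knockout pool and an inhibitor of several enzymes, and these cannot be told apart.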

How the results depend on the processing

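With MS023, 8 members were lower and 1 higher (17.4% and 2.17%, against 19.3% and 11.6% of all genes). These counts did not change when each replicate was left out in turn, although the members did. In each of those 6 fits 8 of the 9 calls remained, TAF1A (or POLR1B without MS023 replicate 2) was lost, and FBL or TAF1D was gained. The count of lower members was 5 with median-ratio scaling, 19 without a fold threshold and 2 with a threshold of 1. That of higher members was 3 and 0 under those thresholds. Of all 12903 genes, 1959 were lower with median-ratio scaling, 3922 without a fold threshold and 618 with a threshold of 1. Under those thresholds 2378 and 465 genes were higher. The members' median was -0.0413 with median-ratio scaling and -0.0533 with quantile normalization, and in PRMT1-KO it was -0.0205 with median-ratio scaling. For the difference of effects, higher members numbered 2 with median-ratio scaling, 3 without a threshold and 0 with a threshold of 1. Lower members numbered 16 and 0 under those thresholds and 6 to 8 with a replicate left out. Of 13256 genes, 1629 were higher with median-ratio scaling. Without a threshold 1903 genes were higher and 2816 lower, and with a threshold of 1 these were 414 and 507. The members' median difference was -0.0517 with median-ratio scaling and -0.0797 with quantile normalization. Signs near 0 turned for NCL with MS023 (0.0851 with median-ratio scaling and 0.0248 with quantile normalization), for PRMT1 (-0.0298 with quantile normalization) and for NPM1 (-0.0014 with quantile normalization, and -0.0278 to 0.0192 with a replicate left out, below 0 without MS023 replicate 1 and without DMSO replicate 2). The cause of these shifts was not tested. Over all settings 35 of 46 members kept their direction with MS023, 35 with PRMT1-KO and 41 in the difference. TAF1B and UTP15 stayed DEGs in all 16 alternatives.

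Samples with the same number deviated together only weakly (correlations of 0.02, 0.07 and 0.10 for MS023 and -0.14, 0.07 and -0.07 for PRMT1-KO), and not every pair passed 0.1, so the numbers were not taken as pairs. Same-number correlations averaged 0.065 with MS023. The mean of -0.033 for other numbers largely follows from that value, because deviations from a group mean cancel within the group. Of the treated samples, 2 of 3 with MS023 and 1 of 3 with PRMT1-KO correlated best with their own number among the controls, and 3 of 3 DMSO and 1 of 3 isgCtrl samples among the treated. With a replicate block, 8 members were lower and 1 higher with MS023 and 7 and 1 in the difference, with medians of -0.14 and -0.13. In PRMT1-KO the block left 0 DEGs among all genes in place of 96, and 0 among members, whose median was -0.06. PRMT1 itself was among the calls lost, with an adjusted p of 0.149 (limma), so the block did not call even the targeted gene. With a replicate left out, the DEGs of PRMT1-KO ran from 1 higher and 1 lower (without isgCtrl replicate 2) to 11 and 10 (without isgCtrl replicate 3), in place of 51 and 45. Limits are that TPM hides depth and total RNA, that 3 replicates and 1 guide stand behind each effect, and that protein was not measured here.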
